A study of Drosophila melanogaster with 4 samples.

Results

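The vacuolar ATPase (V-ATPase) genes of Drosophila melanogaster were examined in ovary follicle cells, the somatic epithelium around the germ line. Members were all genes whose symbol begins with Vha and whose mean normalised count was above 0. There were 27 of them among 15682 genes. A further 6 genes with such symbols were listed at 0. RNA came from a control group of 2 libraries, in which UAS-CD8-GFP alone was expressed, and an EGFR-activated group of 2 libraries, in which UAS-EGFR-lambdatop, a constitutively active receptor for epidermal growth factor (EGFR), was expressed with UAS-CD8-GFP. All groups carried the membrane-tethered GFP, and the sources used here do not name the driver of the UAS transgenes. Flies of both groups were raised at 18 °C and moved as adults to 29 °C for 7 to 10 days. The submitters call the replicates biological.

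The V-ATPase is a rotary proton pump. Its V1 sector, in the cytosol, hydrolyses ATP and turns a rotor. Its V0 sector, in the membrane, carries protons on a ring of proteolipid subunits and so acidifies endosomes, lysosomes and secretory vesicles. Epithelia also place the pump in the plasma membrane. In follicle cells the pump and its regulators Rbcn-3A and Rbcn-3B are known to be needed for Notch signalling. Each subunit position has a principal gene in the fly, and several positions have further paralogs, many of which are known for expression in the testis or in other restricted tissues. The 27 members comprised 13 principal genes, 12 other paralogs and 2 accessory subunit genes.

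Single-gene levels, fold changes and adjusted p-values are those of the authors' deposited table, or were computed from it. A level is a mean normalised count taken across the 4 libraries. A fold change is the log2 ratio of EGFR-activated to control, shown ± its standard error, and a gene was called at an adjusted p under 0.05 from the authors' DESeq2 Wald test over the whole table. The table gives no value for a single library of either group, so replicate spread could not be seen directly. The deposited standard error is a model estimate that stands in for it. Mean normalised counts summed to 21565892 over the 15682 genes, and the V-ATPase members took 0.784% of that sum. Egfr, the gene that the transgene carries, rose by 1.498 ± 0.35 (adjusted p = 0.000177). Among marker lists, 6 of 8 muscle sheath genes and both measurable fat body genes fell, with the remaining fat body marker, Fbp1, listed at 0. Over all genes with an adjusted p, 17.5% were called lower and 18.0% higher. None of 6 germ line markers and none of the 3 haemocyte markers with an adjusted p passed, with 0 and 1 at an unadjusted DESeq2 p under 0.05. Another haemocyte marker, nimC1, had no adjusted p, and haemocyte levels were low, at 58 or less. Germ line transcripts were well measured, with osk at a mean of 4500, orb at 4230 and vas at 1337, and the fat body gene Lsp2 was at 5848. Levels and paralog shares below may therefore include RNA of cells other than follicle cells. Of 8 follicle cell markers 2 rose and 1 fell. Those were tj at 0.87 ± 0.24, eya at 0.90 ± 0.25 and Cad74A at −2.40 ± 0.23 (adjusted p = 0.00216, 0.00171 and 1.3e-22). Fewer cells of a type and less RNA per cell cannot be told apart in such samples. The part of the muscle and fat body genes, and of the moves of follicle cell markers, in the results below was not tested.

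Among subunit positions with paralogs, transcripts of a single gene dominated all but a and e. The B, C, E, G and H positions have only 1 gene each, so no such comparison applies to them. Levels were compared per kilobase of exon, using the union of annotated exons. The highest level was that of Vha16-1, the c subunit that forms the proton-carrying ring, at 23001 per kb (70775 mean normalised counts over a gene of 3077 bp). That was 9.26 times the median of 2483 per kb over the other 12 principal genes, and 9.56 times with the length of the longest transcript. The E and G subunits of the peripheral stalks, which hold the catalytic head still, followed with Vha26 at 9567 per kb and Vha13 at 6082 per kb. The catalytic A subunit gene Vha68-2 stood at 4120 per kb and the B subunit gene Vha55 at 3312 per kb. Vha44 (C), Vha36-1 (D), VhaAC39-1 (d) and VhaPPA1-1 (c'') lay close together, between 2301 and 2650 per kb. The lowest principal genes were Vha100-2 (a) at 1600, VhaM9.7-b (e) at 1474, Vha14-1 (F) at 1091 and VhaSFD (H) at 1045 per kb. The accessory genes VhaM8.9 and VhaAC45 were at 3251 and 2268 per kb. With no spread over libraries for a level, neighbours in this order were not compared by a test.

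**Figure D1:**
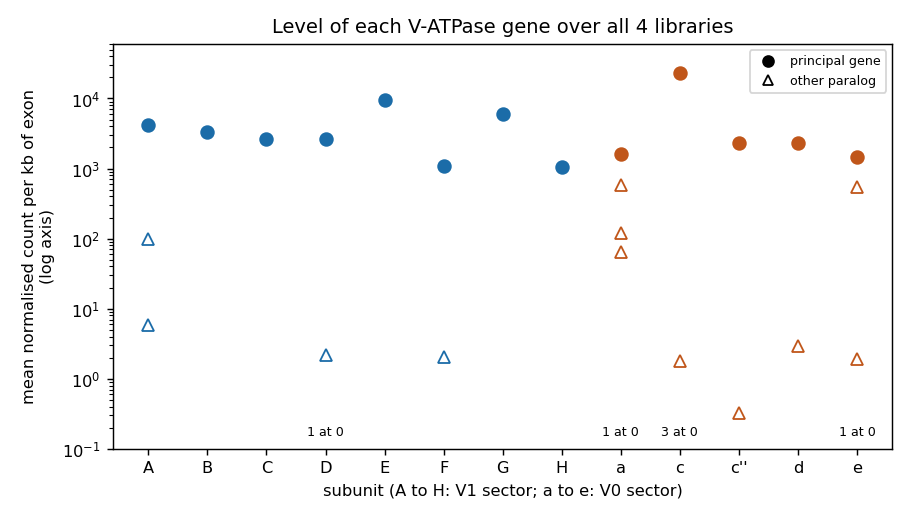
Level of each V-ATPase gene by subunit, as mean normalised count over all 4 libraries per kilobase of exon on a log axis. Filled circles are principal genes and open triangles other paralogs, blue for the V1 and orange for the V0 sector, and genes listed at 0 are counted at the foot. Vha16-1 (c) stands at 23001 per kb, and only the a and e subunits have paralogs within an order of magnitude of the principal gene.

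Paralogs made a sizeable contribution at the a and e positions. Of the summed level per kb of the 5 genes for subunit a, the large membrane subunit that directs the pump to its compartment, Vha100-2 made up 67.7% and Vha100-1, known for its part in neurons, 24.4%. Vha100-4 and Vha100-5 made up 5.16% and 2.76%, and Vha100-3 was listed at 0. Of the 4 genes for the small membrane subunit e, VhaM9.7-b made up 72.7% and VhaM9.7-c 27.2%, VhaM9.7-a was at 0.0931% and VhaM9.7-d was listed at 0. At the A position Vha68-2 made up 97.5%, Vha68-1 2.37% and Vha68-3 0.1396%. At each of the D, F, c, c'' and d positions the principal gene held over 99% of the level, and Vha36-2, Vha16-2, Vha16-3 and Vha16-4 were listed at 0. Genes used in most cells, such as CG5189, a Lamtor subunit of the lysosomal Rag machinery, are also listed at 0 in the table, so a 0 is not read as absence. The Vha68 genes lie within a short stretch of chromosome arm 2L, with no other gene starting between Vha68-2 and Vha68-3, and Vha100-4 and Vha100-2 are likewise adjacent on 3R in the BDGP6 annotation. In the authors' counting, alignments that were not unique went to a row of their own and to no gene. Reads shared by near-identical paralogs were thus left out, so these shares are uncertain for close copies.

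Activation of the receptor was accompanied by small changes in this family. Of the 21 members with an adjusted p, 4 fell, 0 rose and 17 stayed short of the threshold. Across all 9409 genes with an adjusted p, 17.5% were called lower and 18.0% higher, so the share of members called lower, 19.0%, was close to the background. No member was higher at an unadjusted DESeq2 p under 0.05, and 6 were lower. The median of the 21 was −0.33, against 0.06 over all genes with an adjusted p. Of the 21, 19 had a fold change below 0, against 46.8% of all genes with an adjusted p. The remaining 6 members, of lower level, had no adjusted p in the authors' deposited table, and 4 of them were below 0.

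The 4 genes that fell were an A subunit, a c subunit and both accessory genes. Vha16-1 was at −0.51 ± 0.18 (adjusted p = 0.0147), which is 70.1% of the control level with a 95% interval of 55.1% to 89.2%. Vha68-2 was at −0.59 ± 0.21 (adjusted p = 0.0150), or 66.2% of control (95% interval 50.03% to 87.7%). VhaAC45, whose product is the counterpart of a mammalian assembly and sorting subunit of V0 (ATP6AP1), was at −0.71 ± 0.26 (adjusted p = 0.0235), or 61.3% of control, the largest fall among the 20 members whose mean was 50 or more. VhaM8.9, the fly (pro)renin receptor (ATP6AP2), known for roles in Wnt receptor function and planar polarity, was at −0.45 ± 0.19 (adjusted p = 0.0434), or 73.0% of control. The call for VhaM8.9 was near the threshold and ended when the DESeq2 p-values were adjusted over every gene with a p-value (adjusted p = 0.0581). Centring on the median of all genes used that same wider adjustment. There VhaM8.9 was at −0.46 (Wald test, adjusted p = 0.0522), no closer to 0 than as deposited.

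**Figure D2:**
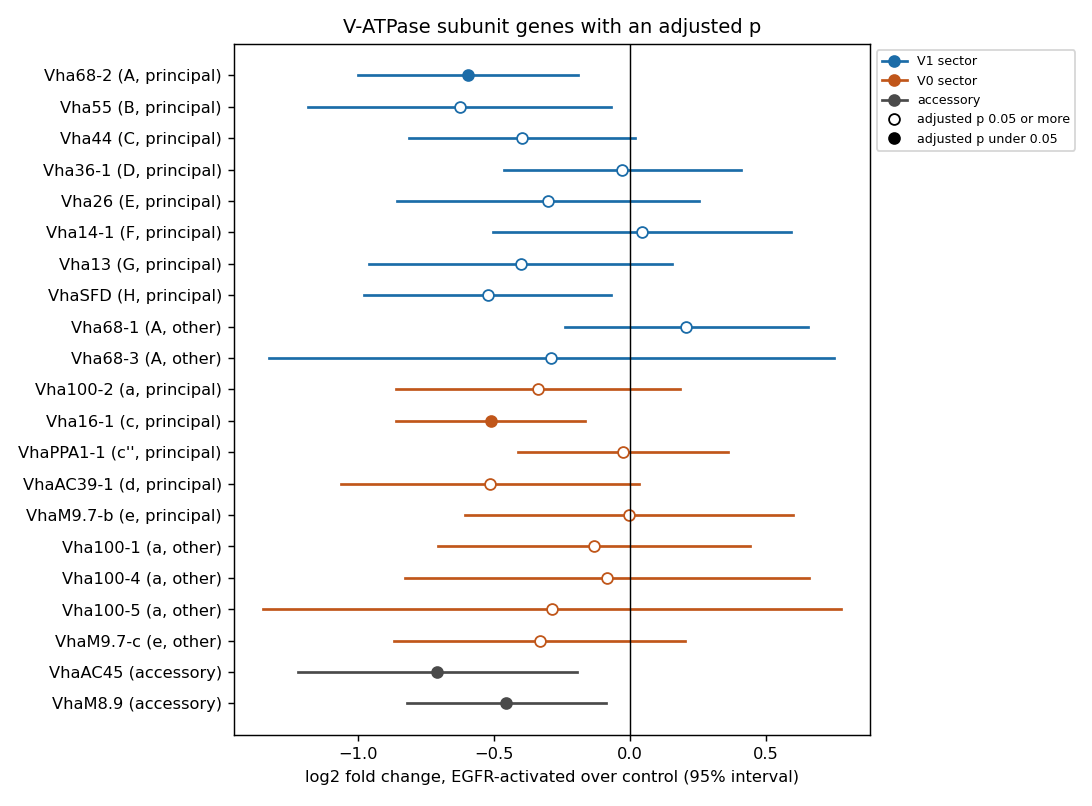
Log2 fold change, EGFR-activated over control, of the 21 V-ATPase genes with an adjusted p, with 95% intervals from the authors' deposited standard errors. Filled points (Vha68-2, Vha16-1, VhaAC45 and VhaM8.9) had an adjusted p under 0.05. Estimates for 19 of the 21 lie left of 0, and most intervals include it.

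Within the catalytic head, where A and B subunits alternate around the ATP sites, Vha55 (B) had a fold change of −0.63 ± 0.28, close to that of Vha68-2, but did not pass (adjusted p = 0.0699). Genes of the peripheral stalks were all below 0 and none passed. VhaSFD (H), which also holds the detached V1 sector inactive in yeast, was at −0.52 ± 0.23 (adjusted p = 0.0621). Vha13 (G) was at −0.40 ± 0.28, Vha44 (C), the subunit released in yeast when the sectors part, at −0.40 ± 0.21, and Vha26 (E) at −0.30 ± 0.28 (adjusted p = 0.280, 0.132 and 0.437). The median of the 4 was −0.40.

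Among the principal rotor genes, Vha16-1 fell and 3 others lay close to 0. Vha36-1 (D) and Vha14-1 (F), the central shaft of V1, were at −0.03 ± 0.22 and 0.05 ± 0.28, and VhaPPA1-1 (c''), the second proteolipid of the ring, at −0.03 ± 0.20. The 95% interval of VhaPPA1-1 ran from −0.41 to 0.36, so on the deposited scale a fall of the size seen for Vha68-2 lies outside it. This did not hold across scales: with the trend of fold change on gene length removed, as described below, VhaPPA1-1 was at −0.42 (adjusted p = 0.1001) and the median of the 5 principal rotor genes moved from −0.03 to −0.56. VhaAC39-1 (d), which couples the ring to the shaft, was at −0.51 ± 0.28 (adjusted p = 0.143). The membrane genes Vha100-2 (a) and VhaM9.7-b (e) were at −0.34 ± 0.27 and 0.00 ± 0.31, and neither passed (adjusted p = 0.341 and 0.993).

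The V0 and V1 sectors gave similar summaries. Among the 5 principal V0 genes 1 fell and the median was −0.34, and among the 8 principal V1 genes 1 fell and the median was −0.40. Over all members with a p-value, the medians were −0.20 for 13 V0 genes and −0.35 for 12 V1 genes, each with 1 lower and 0 higher. With the length trend removed, the medians were −0.42 over 9 V0 genes and −0.56 over 9 V1 genes with a mean of at least 50. The 13 principal genes had a median of −0.40 with 2 lower, and the 12 other paralogs a median of −0.17 with 0 past the DESeq2 test and 0 at an unadjusted p under 0.05. Only 6 of those 12 paralogs had an adjusted p, so this contrast in counts carries a contrast in level. Fold changes of the low members without an adjusted p appear shrunken toward 0. Not all of them lie near it: VhaAC39-2, with 12 reads in all, was at −1.02, the lowest of all members. Over members with an adjusted p the medians were −0.29 for V0, −0.35 for V1 and −0.21 for other paralogs. Differences between the sectors and classes were not tested.

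Paralogs with a mean of at least 10 were set against the principal gene of their own subunit in 6 pairs. Vha68-1, the second A subunit gene, was at 0.21 ± 0.23 while Vha68-2 was at −0.59 ± 0.21, a difference of 0.80 with a 95% interval of 0.20 to 1.40. Widened for the 6 pairs, the interval ran from −0.01 to 1.61. The other 5 differences had 95% intervals that included 0. Vha100-1, Vha100-4 and Vha100-5 differed from Vha100-2 by 0.20, 0.25 and 0.05, VhaM9.7-c differed from VhaM9.7-b by −0.33, and Vha68-3 differed from Vha68-2 by 0.30. Their intervals were wide: that of Vha100-1 ran from −0.57 to 0.98 and that of VhaM9.7-c from −1.13 to 0.48, so sizeable differences are not resolved. The intervals take both standard errors as independent, although the genes share the same libraries.

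Some members share exon sequence on the opposite strand with another gene in the BDGP6 annotation, and the sources used here do not say whether counting used strand. Vha100-5 shares 18.1% of its exonic length with an antisense RNA gene. The shares were 3.68% for Vha44 with Hmgs, 1.79% for VhaPPA1-2 with CG3817, 1.72% for Vha100-4 with cona and 0.334% for Vha100-1 with CG14512. None of those 4 partners passed the test, with Hmgs at 0.72 ± 0.36.

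The family looked different when set against genes of its own length. In the table as a whole, fold changes declined with exonic length: the median was 0.72 over 883 genes of above 500 to 1000 bp, 0.35 over 2485 genes of above 1000 to 2000 bp and −0.48 over 813 genes longer than 6000 bp, all with a mean of at least 50. Of the 20 V-ATPase genes with such a mean, 19 lay below the median of their length class. In the 500 to 1000 bp class, the 3 members, VhaM9.7-c, Vha13 and Vha14-1, lay between −0.40 and 0.05 and all below their class median. In the next class, the 5 members lay between −0.51 and 0.00, again all below it. Of the 8 members between 2000 and 3000 bp 7 were below the median of 0.10, the exception being Vha68-1, and the 4 longer members were all below theirs.

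**Figure D3:**
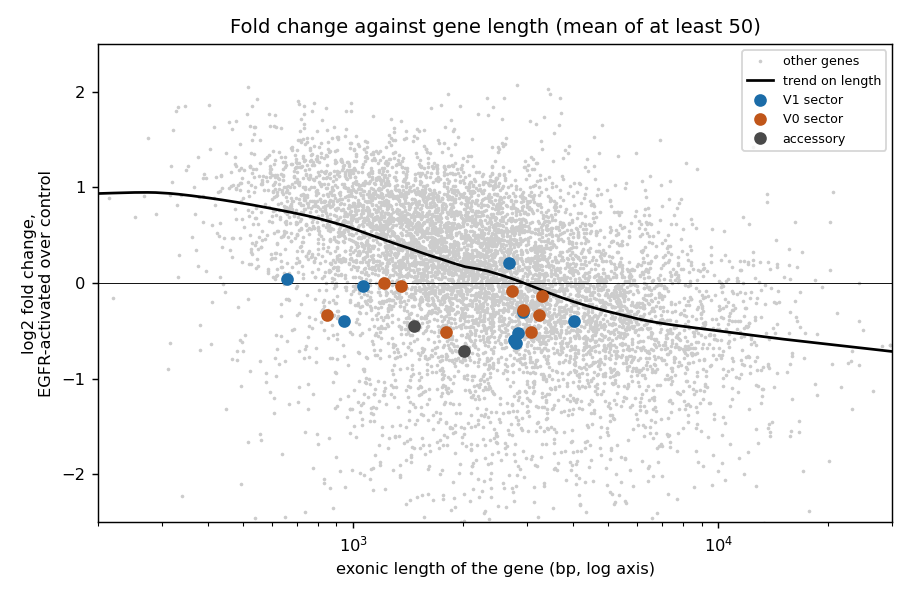
Log2 fold change against exonic length (log axis) for genes with a mean of at least 50, grey, with V-ATPase genes in colour and the lowess trend as a black line; 65 of 7772 genes lie outside the axes. Of the 20 V-ATPase genes drawn, Vha68-1 alone lies above the trend, and VhaM9.7-c and Vha13, both under 1000 bp, lie farthest below it.

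With the lowess trend on length subtracted, 9 of the 20 members whose mean was 50 or more were lower and 0 higher, or 45.0%, where 16.9% of 7772 genes were lower and 11.3% higher. The median of these 20 was −0.51. On the deposited scale, which has no such removal, no member was higher at an unadjusted DESeq2 p under 0.05, as stated above. All 4 genes called as deposited were among the 9 lower with the trend removed. There VhaM8.9 was at −0.80 (adjusted p = 0.000187), VhaAC45 at −0.88 (adjusted p = 0.00471), Vha68-2 at −0.63 and Vha16-1 at −0.48. The other 5 were Vha13 at −1.003 (adjusted p = 0.00280), VhaM9.7-c at −0.98, VhaAC39-1 at −0.75, Vha14-1 at −0.70 and Vha36-1 at −0.56. Vha68-1 stayed above 0, at 0.15. The subtraction removes whatever follows gene length, technical or biological, and which scale is the right one was not tested.

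Genes that act with the pump moved in different directions. Mitf, the fly transcription factor known to activate V-ATPase genes, was at 0.08 ± 0.19 and did not pass (adjusted p = 0.794). Of the 5 measured regulators of the pump, 1 rose and 2 fell. The background over all genes with an adjusted p was 18.0% called higher and 17.5% called lower. Rbcn-3B, part of the complex that joins the sectors, was at −0.85 ± 0.27 (adjusted p = 0.00765), while its partner Rbcn-3A was at −0.26 ± 0.18 (adjusted p = 0.248). The call for Rbcn-3B ended once the length trend was removed (−0.44, adjusted p = 0.232). The gene mtd, of the TLDc family whose mammalian members bind V1, fell by 1.47 ± 0.23 (adjusted p = 8.95e-09), and with the length trend removed it was at −0.90 (adjusted p = 0.000892). The gene skpA, whose yeast counterpart is a subunit of the complex related to Rbcn-3, was at 0.59 ± 0.21 (adjusted p = 0.0199), a call that ended after that removal (adjusted p = 0.225).

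The mitochondrial ATP synthase, a rotary enzyme of related build that makes ATP, was on the other side of 0 as deposited. Of its 6 listed genes 3 rose and 0 fell, with 0 lower at an unadjusted DESeq2 p under 0.05, and the median was 0.999. The background was 18.0% of genes called higher and 17.5% lower. ATPsyn-d rose by 1.53 ± 0.30, ATPsyn-gamma by 1.49 ± 0.29 and blw, the alpha subunit gene, by 1.12 ± 0.24 (adjusted p = 4.91e-06, 4.06e-06 and 2.91e-05). As deposited, all 6 lay above the highest V-ATPase member, Vha68-1 at 0.21. Centred on the ribosomal protein genes, none of the 6 was higher past the test, and ATPsyn-b, ATPsyn-beta and ATPsyn-Cf6 turned to −0.04, −0.20 and −0.29. After removal of the length trend, ATPsyn-d, ATPsyn-gamma and blw were still higher past the test, at 0.94, 1.14 and 0.98. On that scale ATPsyn-beta was at 0.61 and did not pass, ATPsyn-Cf6 turned to −0.09 (adjusted p = 0.906), below Vha68-1 at 0.15, and ATPsyn-b had no matched length. The difference between the enzymes as sets was not tested.

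In the ion and pH transport list 6 of 15 genes fell, 0 rose and 9 did not pass, with no gene higher at an unadjusted DESeq2 p under 0.05. The background was 17.5% of genes called lower and 18.0% higher, and whether this list differs from it was not tested. Ncc69, a sodium, potassium and chloride cotransporter, was at −1.84 ± 0.27, and CG8177, the anion exchanger Ae2, at −1.62 ± 0.20 (adjusted p = 2.66e-10 and 3.78e-14). The sodium pump genes Atpalpha and nrv2 were at −1.23 ± 0.24 and −1.11 ± 0.28 (adjusted p = 3.05e-06 and 0.000587). These 4 passed after removal of the length trend too, at −1.54, −1.21, −0.82 and −0.98. Nhe2, a proton exchanger known for its part in the pH of this lineage, was at 0.07 ± 0.31 (adjusted p = 0.888).

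Few endolysosomal genes were called, with 2 of 24 higher, 3 lower and a median of −0.07. The background given above was 18.0% called higher and 17.5% called lower, and neither endolysosomal share exceeded it. Whether this list differs from the background was not tested. Cp1, which encodes a cathepsin L protease, rose by 0.88 ± 0.24 and Ppt1, a lysosomal thioesterase, by 0.83 ± 0.21 (adjusted p = 0.00173 and 0.000527). The hydrolase genes Gal and CG31414, the fly glucocerebrosidase Gba1b, were at −1.40 ± 0.43 and −1.04 ± 0.30 (adjusted p = 0.00599 and 0.00283). Centred on the ribosomal protein genes, Cp1 and Ppt1 were at −0.04 and −0.09, and skpA, above, at −0.33. The call for Ppt1 ended once the length trend was removed (0.42, adjusted p = 0.121). Of 11 measured genes of the Rag and TOR machinery, which senses nutrients on the lysosome through the pump, none passed the DESeq2 test, 1 had an unadjusted p under 0.05, and the median was −0.15. With the length trend removed 2 of 10 were lower by the repeated Wald test, where 16.9% of all genes were lower. Those were CG14184 (Lamtor1) at −1.05 and RagA at −0.81 (adjusted p = 9.84e-06 and 0.00069).

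**Figure D4:**
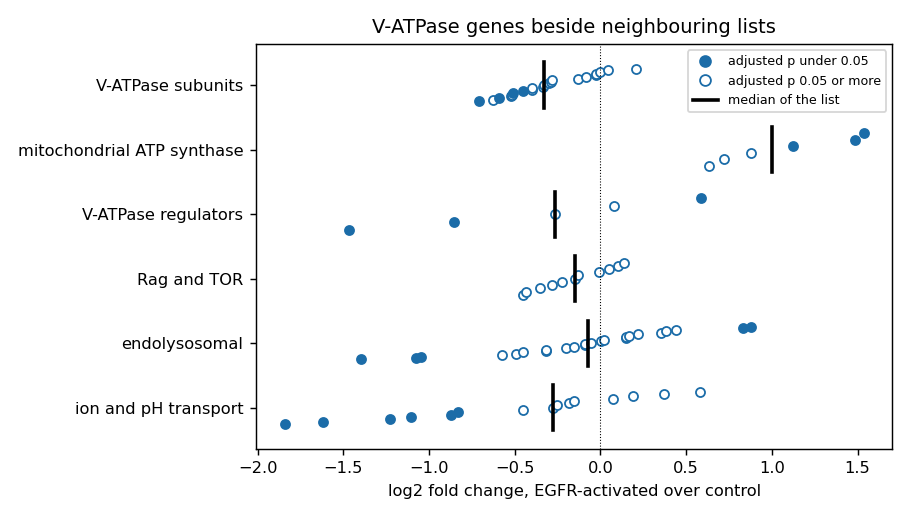
Log2 fold change of V-ATPase genes and of genes in 5 neighbouring lists that had an adjusted p, 1 point a gene, filled where the adjusted p was under 0.05; the bar is the median. V-ATPase points spread from −0.71 to 0.21 around −0.33, ATP synthase points lie at 0.63 and above on this deposited scale, and the ion transport list reaches −1.84.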

How the data were processed

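RNA was sequenced from 4 libraries in 2 groups. Isolation used RNAqueous-Micro, selection used oligo-dT and library preparation used ScriptSeq v2, per the labels' protocols. The build was BDGP5 and the tools were DESeq2 1.2.10, HTSeq 0.6.1 and TopHat2 2.0.10, per the submitters' processing notes. The authors' deposited table gives, per the file headers, a signal (the mean normalised count over all libraries), a Wald score, p-values with and without adjustment, and the log2 fold change with a standard error. Columns of values per sample numbered 0. Excluded were 5 rows without a gene name, and of these the row of non-unique alignments held 41.2% of all mean counts. Among 15682 genes a p-value was given for 12650 and its adjusted form for 9409.

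Medians, counts, intervals (fold change and 95% normal interval) and pairwise differences were computed in Python 3.11.15 with pandas 2.3.3 and scipy 1.17.1. Exonic lengths came from the Ensembl BDGP6 annotation by symbol or synonym, for all 33 Vha symbols and 98.5% of the genes whose mean was 50 or more. That build differs from the authors', and its positions served for neighbouring genes and exon overlaps, with none printed. Fold changes were fitted on log2 length by lowess (statsmodels 0.14.6, span 0.3), the curve was subtracted, and the Wald test was repeated on the remainder with the deposited standard error and Benjamini-Hochberg adjustment. Code was tested on simulated data. All members were named, those with a mean of at least 50 with statistics, and of each list up to 4 called genes of smallest adjusted p, plus Mitf, Nhe2, Rbcn-3A and Rbcn-3B. The 2 Rag and TOR genes called only with the length trend removed were named too. The classes of principal genes and other paralogs rest on general knowledge of the enzyme. Members and lists were chosen with earlier results of these data known. A list entry, Ncoa7, was not matched. Alternatives were other thresholds, adjustments, scalings, a minimum mean and the length correction. The planned use of edgeR needed counts of each library mapped to samples, which were not analysed here.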

Additional observations from a re-analysis of the deposited data

How the results depend on the processing

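No paired analysis was possible because the table holds no column of values per sample, although the labels number the replicates; for the same reason edgeR, DESeq2 on counts and fits without a replicate were not run. The 4 lower calls among 21 members were 0 at a threshold of 0.01, where 12.6% of all genes were lower. They were 9 of 20 after removal of the length trend, and 10 of 20 with the length of the longest transcript (chosen after seeing the data). By either length 16.9% of all genes were lower. Lower calls numbered 26 of 27 when centred on the ribosomal protein genes, a shift of 0.92. On that last scale 60.7% of all genes were lower (7680 lower, 100 higher), so most genes of any kind were called lower there. Whether the family differs from them on it was not tested. As deposited 50.8% of all calls were higher, and after removal of the length trend 40.1% (880 higher, 1316 lower).

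Centred on the ribosomal protein genes, the medians were −1.12 for V0, −1.27 for V1, −1.50 for accessory, −1.31 for principal genes and −1.09 for other paralogs. The accessory median was −0.84 with either length correction. On that ribosomal scale Egfr was at 0.58 and did not pass, and Vha68-1 turned to −0.71, Vha14-1 to −0.87, Mitf to −0.84 and Nhe2 to −0.85. With the length trend removed Vha14-1 turned to −0.70 by either length, and Rbcn-3A to 0.26, or 0.30 by longest transcript.

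Counts in the neighbouring lists also moved. Centred on the ribosomal protein genes, lower genes numbered 19 endolysosomal, 13 ion transport, 4 regulators and 11 Rag and TOR, while higher genes fell to 0 for endolysosomal, regulators and ATP synthase. By either length correction 1 endolysosomal gene was higher, regulators were 0 higher and 1 lower, and 2 Rag and TOR genes were lower; 1 ion transport gene was higher with exon union lengths. At a threshold of 0.1, 5 endolysosomal and 1 Rag and TOR gene were lower, and at 0.01 no regulator was higher. Of all genes, 20.3% were lower at 0.1 and 11.7% higher at 0.01. The cause of these moves was not tested. Fold changes from the authors' version of DESeq2 appear shrunken toward 0 for low genes. VhaPPA1-2, resting on 1 read, had 0.07 with a standard error of 0.17, near the 0.18 of Vha16-1. The low gene VhaAC39-2 was nonetheless at −1.02 with a standard error of 0.54.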

Other observations

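Low paralogs were followed to single reads. A gene with 1 read has a mean normalised count set by the size factor of its library, so the 4 lowest values that many genes share gave size factors of 1.46, 1.16, 0.786 and 0.773. Which library belongs to which group is not assigned, so no comparison uses them. Whole reads that add up to the deposited mean had a single solution for each of the 7 members with a mean under 20. In the order of those size factors, Vha68-3 had 23, 10, 16 and 10 reads, so it was seen in every library. Vha14-2 had 1, 3, 1 and 7 reads and VhaAC39-2 1, 1, 6 and 4, also seen in all libraries. Vha36-3 had 0, 7, 1 and 3 reads, VhaM9.7-a 1, 1, 3 and 0, and Vha16-5 2, 0, 3 and 0. VhaPPA1-2 rested on 1 read in 1 library, so its fold change of 0.07 carries almost no information.

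A pair of genes related to accessory subunits stand in the table under other symbols and are no members by the symbol rule: CG31030, now VhaAC45RP, was listed at 0, and CG5421, for which RefSeq gives the synonym VhaAC45-2, had a mean of 2.34. Both were looked up after the members' values had been seen.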
